A study of Arabidopsis thaliana with 12 samples.

Results

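The comparison described here is the change of the pH effect with time: the difference between roots at pH 6 and pH 4.5 after 8 h, minus the same difference after 1 h. It was computed for 22746 probe sets from 12 of 12 samples of the series, so no sample was left out. The samples were roots from wild-type Arabidopsis thaliana (Col-0), with a developmental stage given as 3.90 weeks, from plants grown at 23 °C in non-sterile hydroponics. The 4 groups, with n = 3 arrays in each, were pH 4.5 for 1 h, pH 6 for 1 h, pH 4.5 for 8 h and pH 6 for 8 h. All groups share the wild-type strain and the nutrient solution, and samples from before the pH change were not among them, so a pH effect does not show at which of the pH values a gene moved. The labels do not say whether the arrays of a group came from separate cultures, so the p-values measure the spread between these arrays, which may be technical. They also do not give the hour of day of sampling. Between 1 h and 8 h, time at the pH and hour of day therefore cannot be told apart.

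Protons in the medium reach the root cell wall directly, and the plasma membrane proton pump works against them. Acid walls loosen through expansins, while enzymes such as xyloglucan endotransglucosylase/hydrolases (XTH), pectin methylesterases and class III peroxidases cut, join or stiffen wall polymers. Receptor kinases of the FERONIA and THESEUS type sense the state of the wall, and calcium and WRKY-type signals carry early responses to stress. A gene that answers a new pH at once and then returns, and one that answers only later, both show up as a change of the pH effect between the early and the late time.

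Values are array signals on a linear scale, each array scaled by the authors, and effects are differences of log2(signal + 4) given with their standard error (SE). On this scale the change of genes near a signal of 4 or under it is understated. An effect above 0 means a higher signal at pH 6. A result was called at a Benjamini-Hochberg adjusted p under 0.05 over all 22746 probe sets in limma, which fitted all 12 arrays together. The number of arrays limits the precision: the median SE was 0.182 for a pH effect and 0.258 for the change. Array medians lay between 38.2 and 40.2, and at 1 h the 3 medians at pH 6 (39.9 to 40.2) were all above those at pH 4.5 (38.2 to 38.3). The 3' to 5' signal ratio of the actin control, a sign of RNA quality, was high on every array, at 9.9985 to 21.1. It was 18.2 to 21.1 at pH 4.5 and 9.9985 to 17.0 at pH 6 after 1 h, and overlapped between the pH values after 8 h. The part of these differences in the results was not tested. Of 14 root markers 2 had a named probe set, the root hair expansins EXPA7 and EXPA18, and both gave mean signals of 67.8 or more in every group. Their summed signal overlapped between the pH values at 1 h (179 to 216 at pH 4.5 and 189.6 to 268 at pH 6) but not at 8 h (127 to 180.3 and 229 to 261). At 8 h the EXPA7 means were 67.8 at pH 4.5 and 134.9 at pH 6 (standard deviations 11.9 and 8.41). The EXPA18 means were closer, at 94.6 and 112.3 (standard deviations 19.1 and 8.49). Of 11 green shoot markers 3 were measured (RCA, LHCB4.1 and PSAN, none at 0), and their summed signal was 116 to 185 at 1 h and 59.7 to 97.6 at 8 h, without overlap between the times. Their part in the change was not tested. In whole roots, fewer cells of a type and less RNA per cell cannot be told apart.

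The pH effect changed with time in 2145 probe sets, 9.43% of those tested. In 980 (4.31%) the change was toward higher signal at pH 6, and in 1165 (5.12%) toward higher signal at pH 4.5. At 1 h 1464 probe sets (6.44%) had a called pH effect, 674 (2.96%) higher at pH 6 and 790 (3.47%) higher at pH 4.5. At 8 h the number was 4125 (18.1%), of which 2083 (9.16%) were higher at pH 6 and 2042 (8.98%) higher at pH 4.5. Centring each array on its median instead turned the share of changes toward pH 6 from 45.69% to 55.2%, with 1958 probe sets called under both scalings. No scaling moved the median of all probe sets by more than 0.1.

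Probe sets with a called change fell into classes by the time at which the pH effect itself was called. An effect was lost where it was called at 1 h only, which held for 166 probe sets (0.73%) higher at pH 4.5 at 1 h and 132 (0.58%) higher at pH 6; with each array centred on its median these numbered 212 and 84. It was gained, called at 8 h only, in 754 (3.31%) higher at pH 4.5 at 8 h and in 579 (2.55%) higher at pH 6. It reversed, called at both times with opposite signs, in 99 (0.435%) that began higher at pH 4.5 and in 96 (0.422%) that began higher at pH 6. Effects that kept their sign grew in 85 (0.374%) probe sets higher at pH 4.5 and 43 (0.189%) higher at pH 6, and shrank in 36 (0.158%) and 6 (0.0264%). The remaining 149 (0.655%) had no called effect at either time. An effect called at 1 h only is not by itself a lost one: of 657 such probe sets 298 (45.36%) had a called change, and of 3318 called at 8 h only 1333 (40.17%) did. Some of these counts depended on 1 array: without replicate 1 of pH 4.5, 1 h the first kind of reversal numbered 65, and without replicate 1 of pH 6, 1 h the second numbered 62 and the lost effects higher at pH 6 numbered 87. Grown effects higher at pH 6 numbered 16, 17 and 20 without pH 6, 1 h replicate 3, pH 4.5, 1 h replicate 2 and pH 4.5, 1 h replicate 1. Those higher at pH 4.5 numbered 53 and 56 without pH 4.5, 1 h replicates 2 and 1, and shrunken effects higher at pH 4.5 numbered 22 without pH 4.5, 8 h replicate 2.

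**Figure D1:**
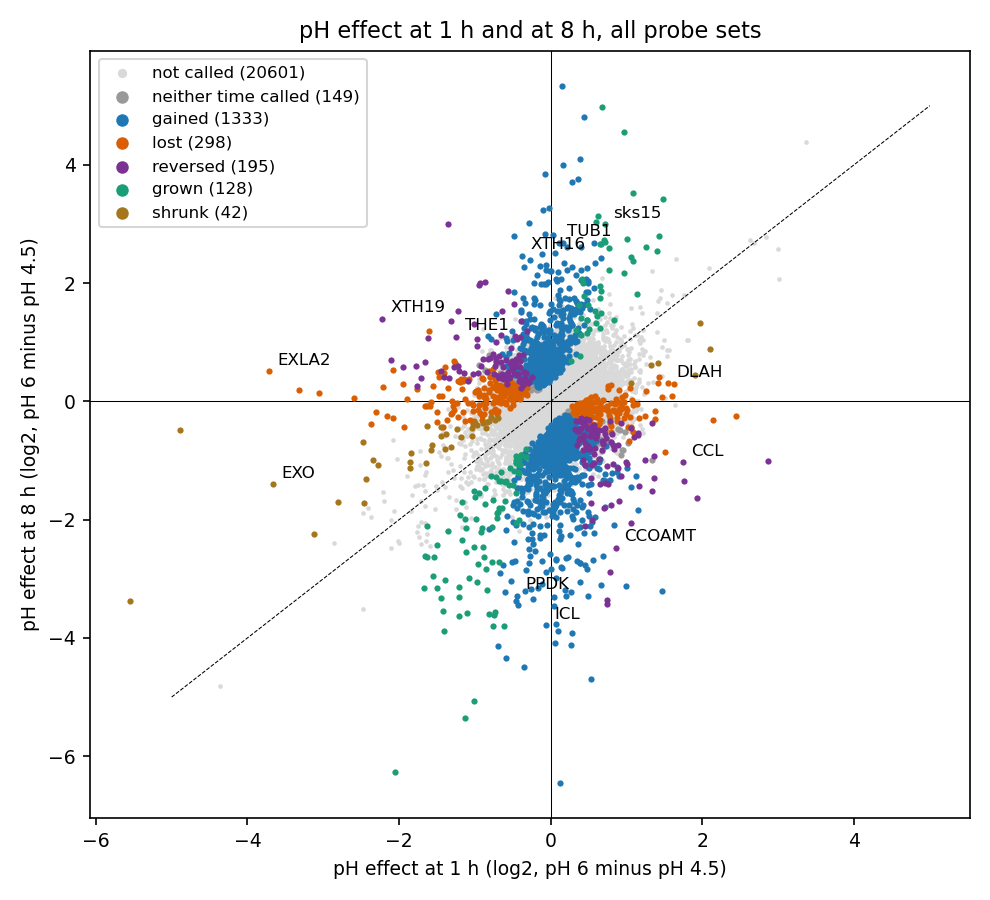
The pH effect of each probe set at 1 h (horizontal axis, log2 of signal + 4, pH 6 minus pH 4.5) is plotted against the effect at 8 h (vertical axis, same scale), coloured by class, with the number of probe sets of each class in the legend and a dashed line where both effects are equal. Gained effects lie along the vertical axis, lost effects along the horizontal axis (EXLA2 at -3.72 and 0.52), and reversed effects in the upper left (XTH19 at -2.23 and 1.40) and lower right (CCOAMT at 0.86 and -2.47) quadrants.

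The classes were divided by the medium in which the level itself had a called move between 1 h and 8 h. Over all 2145 changes, the signal moved with time at pH 4.5 only in 983 (45.83%), at pH 6 only in 510 (23.78%), at both in 475 (22.14%) and at neither in 177 (8.25%). The time effect as such was called in 3455 probe sets (15.2%) at pH 4.5, where 8.05% were higher and 7.14% lower at 8 h, and in 2751 (12.1%) at pH 6, where 5.33% were higher and 6.76% lower. Of the 166 lost effects that were higher at pH 4.5, 96 moved only at pH 4.5. Of the 132 lost effects higher at pH 6, 62 moved only at pH 4.5 and 41 only at pH 6. Among the 579 gained effects higher at pH 6, 293 fell at pH 4.5 without a called move at pH 6, 126 rose only at pH 6, and 70 moved in opposite directions. The 754 gained effects higher at pH 4.5 comprised 336 that rose only at pH 4.5, 214 that fell only at pH 6 and 129 that moved in opposite directions. The change of the pH effect equals the time effect at pH 6 minus that at pH 4.5, so a move in some medium is built in. The direction of these moves follows largely from how the classes are defined and is no separate result. A move in only one medium means that the other missed the threshold, not that it was absent. In reversals the signal moved in opposite directions in 54 of the 99 that began higher at pH 4.5 and in 57 of the 96 that began higher at pH 6.

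**Figure D2:**
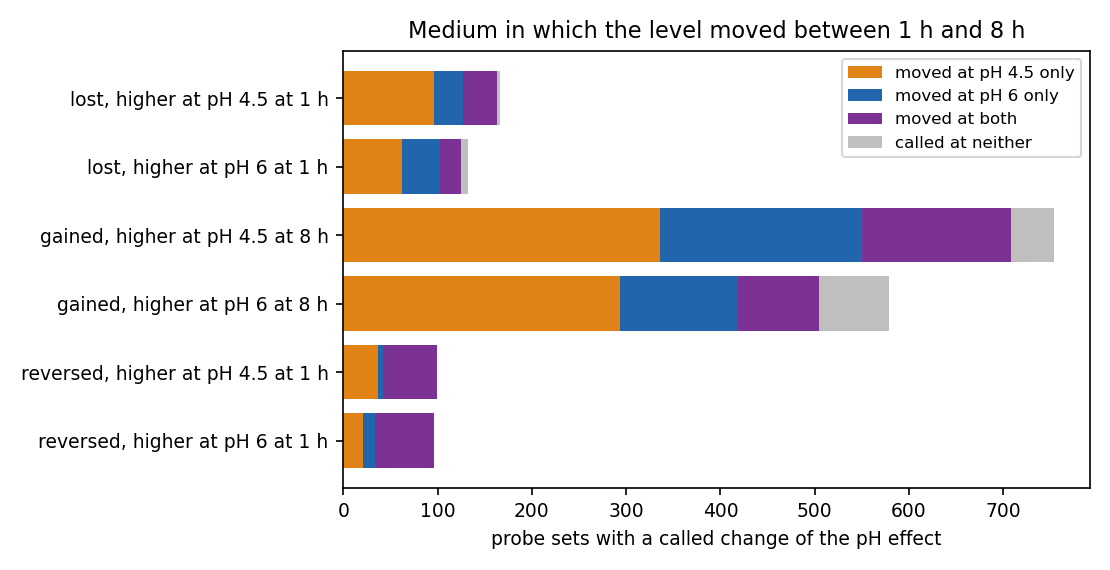
Horizontal bars give the number of probe sets in the 6 lost, gained and reversed classes, divided by whether the signal had a called change between 1 h and 8 h at pH 4.5 only, at pH 6 only, at both or at neither. Among lost effects higher at pH 4.5 the segment for pH 4.5 only is the longest (96 of 166).

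Rankings from here on cover genes with a named probe set and a group mean of at least 20. Among these, the expansin-like gene EXLA2 had the largest lost effect. Expansin-like proteins resemble expansins in sequence. EXLA2 gave signals of 253, 268 and 304 at pH 4.5 and 13.9, 17.6 and 20.2 at pH 6 after 1 h, and 16.9, 9.25 and 22.3 at pH 4.5 and 19.3, 22.3 and 30.8 at pH 6 after 8 h. The 3 arrays at pH 4.5, 1 h stood far above the other 9, and the pH groups overlapped at 8 h. Its effect was -3.72 ± 0.23 at 1 h and 0.52 ± 0.23 at 8 h, a change of 4.24 ± 0.33 (adjusted p = 8.18e-07), and the fold between the pH values went from 13.2 to 1.43. The level moved with time by -3.84 at pH 4.5 and 0.39 at pH 6.

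ATPMEPCRB, a pectin methylesterase of a family that removes methyl groups from pectin, followed the same course at a higher signal. ATPMEPCRB read 749, 701 and 622 at pH 4.5 and 158, 209.9 and 162 at pH 6 after 1 h, and 172, 178 and 165 at pH 4.5 and 211, 227 and 194 at pH 6 after 8 h. The pH 4.5, 1 h arrays were above all others. At 8 h the pH groups did not overlap, with pH 6 slightly higher, but that difference was not called. The ATPMEPCRB effect was -1.95 ± 0.11 at 1 h and 0.29 ± 0.11 at 8 h, a change of 2.24 ± 0.15 (adjusted p = 3.14e-07). EXLA3, a relative of EXLA2, had effects of -2.31 at 1 h and -0.18 at 8 h (adjusted p of the change = 0.0111). GH3.1, of the GH3 family whose members conjugate hormones such as auxin to amino acids, had effects of -1.93 at 1 h and -0.44 at 8 h (adjusted p of the change = 0.00534). For locus AT1G59660 the effects were -2.60 at 1 h and 0.06 at 8 h (adjusted p of the change = 0.000147), and for AT1G76640, the calmodulin-like gene CML39 by its synonym, -2.09 at 1 h and 0.52 at 8 h (adjusted p of the change = 0.00151). PUB26, a U-box ubiquitin ligase, had effects of -1.14 at 1 h and 0.38 at 8 h (adjusted p of the change = 0.0242), and its call was lost in 8 of 21 alternative settings.

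Other early effects, higher at pH 4.5, shrank without disappearing. EXO (EXORDIUM), a protein linked to brassinosteroid-promoted growth, gave signals of 2725, 3006 and 2262 at pH 4.5 and 174, 219 and 224 at pH 6 after 1 h, and 463, 446 and 474 at pH 4.5 and 164, 199 and 155 at pH 6 after 8 h. The groups did not overlap at either time, and both were lower at 8 h than pH 4.5 was at 1 h. The EXO effect was -3.67 ± 0.12 at 1 h and -1.40 ± 0.12 at 8 h, a change of 2.27 ± 0.17 (adjusted p = 7.45e-07), with a fold of 12.7 at 1 h and 2.64 at 8 h. The expansin-like gene EXLA1 shrank likewise, with effects of -2.34 at 1 h and -0.98 at 8 h (adjusted p of the change = 0.00169). APS3, an ATP sulfurylase of sulfate assimilation, had effects of -1.24 at 1 h and -0.46 at 8 h (adjusted p of the change = 0.00077).

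Lost effects in the other direction, higher at pH 6 at 1 h, were smaller among genes with a symbol. The locus AT2G36690 led them. AT2G36690 read 31.9, 42.03 and 29.7 at pH 4.5 and 205, 249 and 167 at pH 6 after 1 h, and 161, 184 and 171 at pH 4.5 and 159.7, 147 and 125 at pH 6 after 8 h. The low group was pH 4.5, 1 h, and at 8 h the pH groups separated in the opposite order by a difference that was not called. Its effect was 2.45 ± 0.15 at 1 h and -0.25 ± 0.15 at 8 h, a change of -2.70 ± 0.21 (adjusted p = 8.18e-07), and the level moved with time by 2.20 at pH 4.5 and -0.50 at pH 6.

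DLAH, a DAD1-like acylhydrolase, a type of enzyme that releases fatty acids from membrane lipids, gave signals of 56.9, 66.1 and 62.8 at pH 4.5 and 180.1, 196 and 189.7 at pH 6 after 1 h, and 69.6, 82.4 and 70.3 at pH 4.5 and 96.3, 83.3 and 97.4 at pH 6 after 8 h. The 3 arrays at pH 6, 1 h were the highest, and at 8 h pH 6 was above pH 4.5 without overlap, by a difference that was not called. The DLAH effect was 1.55 ± 0.10 at 1 h and 0.30 ± 0.10 at 8 h, a change of -1.25 ± 0.15 (adjusted p = 4.73e-05). CHX16, a cation/proton exchanger, had effects of 0.80 at 1 h and -0.42 at 8 h (adjusted p of the change = 0.00608), with overlapping groups at 8 h. ChiC, a chitinase, had 0.54 at 1 h and -0.37 at 8 h (adjusted p of the change = 0.011). HCT, a hydroxycinnamoyl transferase of lignin synthesis, had 0.30 at 1 h and -0.20 at 8 h (adjusted p of the change = 0.0149), and its change was not called without the intensity trend of the fit. PRA8, a prenylated Rab acceptor, had 0.46 at 1 h and -0.19 at 8 h (adjusted p of the change = 0.00239).

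The largest change among the ranked genes belonged to a gained effect higher at pH 4.5, at the locus AT3G60420. AT3G60420 read 8.82, 18.1 and 3.07 at pH 4.5 and 8.77, 5.32 and 17.7 at pH 6 after 1 h, and 845, 725 and 630.3 at pH 4.5 and 7.24, 3.69 and 2.77 at pH 6 after 8 h. The 3 arrays at pH 4.5, 8 h stood far above the other 9, and at 1 h the groups overlapped. Its effect was 0.12 ± 0.37 at 1 h and -6.45 ± 0.37 at 8 h, a change of -6.57 ± 0.52 (adjusted p = 1.08e-06). Loci AT3G47480 and AT2G41380 behaved alike in level, the former with effects of -0.59 at 1 h and -4.33 at 8 h (adjusted p of the change = 9.66e-06) and the latter, whose effect had grown from one already called at 1 h, with -1.02 at 1 h and -5.06 at 8 h (adjusted p of the change = 3.03e-07).

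Genes of carbon metabolism were among the gained effects higher at pH 4.5. ICL, isocitrate lyase, which feeds acetate units from fat or amino acid breakdown into the glyoxylate cycle, gave signals of 10.5, 1.28 and 1.32 at pH 4.5 and 4.34, 4.97 and 0.804 at pH 6 after 1 h, and 149.9, 164 and 133 at pH 4.5 and 6.91, 9.55 and 5.13 at pH 6 after 8 h. It was near the lower end of the scale in 3 groups and rose only at pH 4.5, 8 h, without overlap. The ICL effect was -0.06 ± 0.36 at 1 h and -3.79 ± 0.36 at 8 h, a change of -3.73 ± 0.51 (adjusted p = 0.000205). PPDK, pyruvate orthophosphate dikinase, which makes phosphoenolpyruvate from pyruvate, read 28.7, 30.2 and 35.1 at pH 4.5 and 36.6, 18.5 and 15.2 at pH 6 after 1 h, and 189.8, 172 and 236 at pH 4.5 and 16.4, 11.9 and 23.2 at pH 6 after 8 h. The pH groups of PPDK overlapped at 1 h and were far apart at 8 h. The PPDK effect was -0.44 ± 0.26 at 1 h and -3.29 ± 0.26 at 8 h, a change of -2.85 ± 0.36 (adjusted p = 0.000101).

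Of the 16 citrate and glyoxylate cycle genes measured, ICL was 1 of 2 called, the other being ACLB-1, an ATP-citrate lyase subunit, with effects of -0.12 at 1 h and 0.43 at 8 h (adjusted p of the change = 0.0165). The list's median change was 0.129. Over all 13286 genes 1097 (8.26%) had a called change, 490 (3.69%) toward pH 6 and 607 (4.57%) toward pH 4.5, and the median change was -0.021, against which the counts of each list are to be read. Lists hold only genes that were matched by name and had a named probe set. A list can therefore lack members of its family, and its counts do not describe a whole family.

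UGT73D1, a glycosyltransferase that attaches sugars to small molecules, read 64.7, 53.3 and 59.4 at pH 4.5 and 73.7, 49.2 and 31.6 at pH 6 after 1 h, and 144, 133 and 164 at pH 4.5 and 11.5, 18.4 and 9.23 at pH 6 after 8 h. At 8 h pH 4.5 was above and pH 6 below both 1 h groups, with no overlap. The UGT73D1 effect was -0.25 ± 0.24 at 1 h and -3.18 ± 0.24 at 8 h, a change of -2.93 ± 0.34 (adjusted p = 4.81e-05), and the level moved with time by 1.26 at pH 4.5 and -1.67 at pH 6. The UDP-glycosyltransferase list had 5 of 51 members called (9.8%, beside 8.26% of all genes), all toward pH 4.5, and its median change was -0.297. UGT87A2 had effects of -0.22 at 1 h and -1.91 at 8 h (adjusted p of the change = 0.000522) and UGT76B1 of -0.23 at 1 h and -1.14 at 8 h (adjusted p of the change = 0.0024).

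BGLU25, a beta-glucosidase, a class that cleaves stored glucosides, read 199.8, 196 and 204 at pH 4.5 and 193, 182 and 169 at pH 6 after 1 h, and 1134, 1052 and 802 at pH 4.5 and 217, 204 and 191 at pH 6 after 8 h. The pH groups did not overlap at 8 h. Only pH 4.5 at 8 h stood well above the other 3 groups. The BGLU25 effect was -0.14 ± 0.11 at 1 h and -2.25 ± 0.11 at 8 h, a change of -2.11 ± 0.15 (adjusted p = 5.45e-07). BGLU46 was the other of 2 called among 21 beta-glucosidases, with 0.43 at 1 h and -0.58 at 8 h (adjusted p of the change = 0.0108). That share, 9.52%, lay near the 8.26% of all genes, and the list's median change was -0.027. Of 24 listed cytochrome P450 genes 2 were called (8.33%, beside 8.26% of all genes), and the median change was 0.17. CYP71B6 had effects of 0.23 at 1 h and -1.27 at 8 h (adjusted p of the change = 1.73e-06) and CYP71B29 of 0.71 at 1 h and -0.45 at 8 h (adjusted p of the change = 0.00164).

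Glutathione transferases, which conjugate reactive compounds to glutathione, split by member. GSTU22, higher at pH 4.5 at both times, had effects of -1.21 at 1 h and -3.31 at 8 h (adjusted p of the change = 7.68e-05). GSTU26 and ATGSTF13 gained an effect in the other direction, with 0.11 at 1 h and 1.63 at 8 h (adjusted p of the change = 5.81e-05) and 0.03 at 1 h and 1.56 at 8 h (adjusted p of the change = 1.58e-05). GSTU28 grew toward pH 6, with 0.97 at 1 h and 2.17 at 8 h (adjusted p of the change = 0.00104). Of 14 such genes 3 moved toward pH 6 and 2 toward pH 4.5 (3.69% and 4.57% of all genes did), with a median change of -0.219. The latter count was 1 when any 1 of these arrays was left out: pH 4.5, 1 h replicates 1 and 2, pH 6, 1 h replicates 1 and 3, the 3 arrays of pH 4.5, 8 h and pH 6, 8 h replicate 1.

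Calcium and stress genes took several courses. CML41, a calmodulin-like protein that binds calcium, gained its effect. CML41 gave signals of 14.6, 13.1 and 12.6 at pH 4.5 and 10.5, 12.8 and 9.29 at pH 6 after 1 h, and 105, 94.8 and 75.9 at pH 4.5 and 9.84, 16.7 and 15.6 at pH 6 after 8 h. Only pH 4.5, 8 h was high. The CML41 effect was -0.23 ± 0.21 at 1 h and -2.42 ± 0.21 at 8 h, a change of -2.19 ± 0.29 (adjusted p = 0.000156). CML43 instead reversed, reading 88.2, 102 and 115 at pH 4.5 and 143, 205 and 137 at pH 6 after 1 h, and 239, 271 and 217 at pH 4.5 and 122, 127 and 113 at pH 6 after 8 h. At pH 4.5 the level rose with time, and at 8 h it was above all other groups. The CML43 effect was 0.63 ± 0.14 at 1 h and -0.98 ± 0.14 at 8 h, a change of -1.61 ± 0.20 (adjusted p = 8.69e-05, and 0.0139 for the 1 h effect). CML38 and CML37, also calmodulin-like, were higher at pH 4.5 at both times and their change was not called, with effects of -2.11 at 1 h and -2.01 at 8 h (adjusted p of the change = 0.926) and -1.60 at 1 h and -2.44 at 8 h (adjusted p of the change = 0.153). Of 8 calmodulin-like genes, 6 were higher at pH 4.5 at 8 h and 4 at 1 h, beside 1029 and 385 of all 13286 genes. The change was called toward pH 4.5 in 2 and toward pH 6 in 1, AT1G76640, beside 4.57% and 3.69% of all genes. The median change was -0.269.

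AR781, in the early stress list, lost signal at pH 6. AR781 read 120.3, 95.6 and 102 at pH 4.5 and 119, 64.6 and 75.6 at pH 6 after 1 h, and 131, 114 and 148 at pH 4.5 and 13.8, 16.4 and 13.6 at pH 6 after 8 h. The drop was in the pH 6 arrays, which at 8 h lay below all others. The AR781 effect was -0.32 ± 0.18 at 1 h and -2.85 ± 0.18 at 8 h, a change of -2.53 ± 0.26 (adjusted p = 1.32e-05), with moves in time of 0.29 at pH 4.5 and -2.24 at pH 6. The change was called in 2 of 6 early stress genes, AR781 and WRKY53, beside 8.26% of all genes. In STZ, a zinc finger repressor, it was not, with effects of -1.34 at 1 h and -1.62 at 8 h (adjusted p of the change = 0.452). The list's median change was -0.639.

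WRKY53, a stress and senescence transcription factor, reversed, reading 75.5, 63.7 and 67.1 at pH 4.5 and 158, 171 and 145 at pH 6 after 1 h, and 136, 132 and 116 at pH 4.5 and 86.6, 93.7 and 80.95 at pH 6 after 8 h. The order of the pH groups turned over between the times, without overlap at either. The WRKY53 effect was 1.15 ± 0.10 at 1 h and -0.54 ± 0.10 at 8 h, a change of -1.69 ± 0.15 (adjusted p = 2.67e-06). WRKY6 grew in its excess at pH 4.5, with effects of -0.65 at 1 h and -1.34 at 8 h (adjusted p of the change = 0.00834). These were the 2 of 7 listed WRKY factors called, beside 8.26% of all genes, and the median change was -0.38. BIK1, a receptor-associated immune kinase, reversed with effects of 0.58 at 1 h and -0.60 at 8 h (adjusted p of the change = 0.000825, of the 1 h effect = 0.0165).

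CCOAMT, a caffeoyl-CoA O-methyltransferase of the phenylpropanoid pathway, had the largest reversal among genes with a symbol that began higher at pH 6. CCOAMT gave signals of 49.3, 53.3 and 59.8 at pH 4.5 and 128, 80.6 and 100.4 at pH 6 after 1 h, and 124, 117 and 125 at pH 4.5 and 19.9, 12.1 and 26.3 at pH 6 after 8 h. At 1 h pH 6 was higher and at 8 h pH 4.5 was, with no overlap at either time. The CCOAMT effect was 0.86 ± 0.20 at 1 h and -2.47 ± 0.20 at 8 h, a change of -3.33 ± 0.29 (adjusted p = 2.24e-06, and 0.0185 for the 1 h effect). Its level moved by 1.12 at pH 4.5 and -2.21 at pH 6. CCL, a transcript known for its clock-linked control, read 13.3, 13.4 and 14.04 at pH 4.5 and 70.3, 50.3 and 45.9 at pH 6 after 1 h, and 32.6, 29.9 and 47.4 at pH 4.5 and 14.3, 17.5 and 15.1 at pH 6 after 8 h. Its groups were separate at both times in opposite orders. The CCL effect was 1.74 ± 0.20 at 1 h and -1.03 ± 0.20 at 8 h, a change of -2.77 ± 0.29 (adjusted p = 1.46e-05). Loci AT3G13950 and AT1G26420 reversed more, with effects of 0.78 at 1 h and -2.89 at 8 h (adjusted p of the change = 1.28e-07) and 1.94 at 1 h and -1.63 at 8 h (adjusted p of the change = 2.61e-06).

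**Figure D3:**
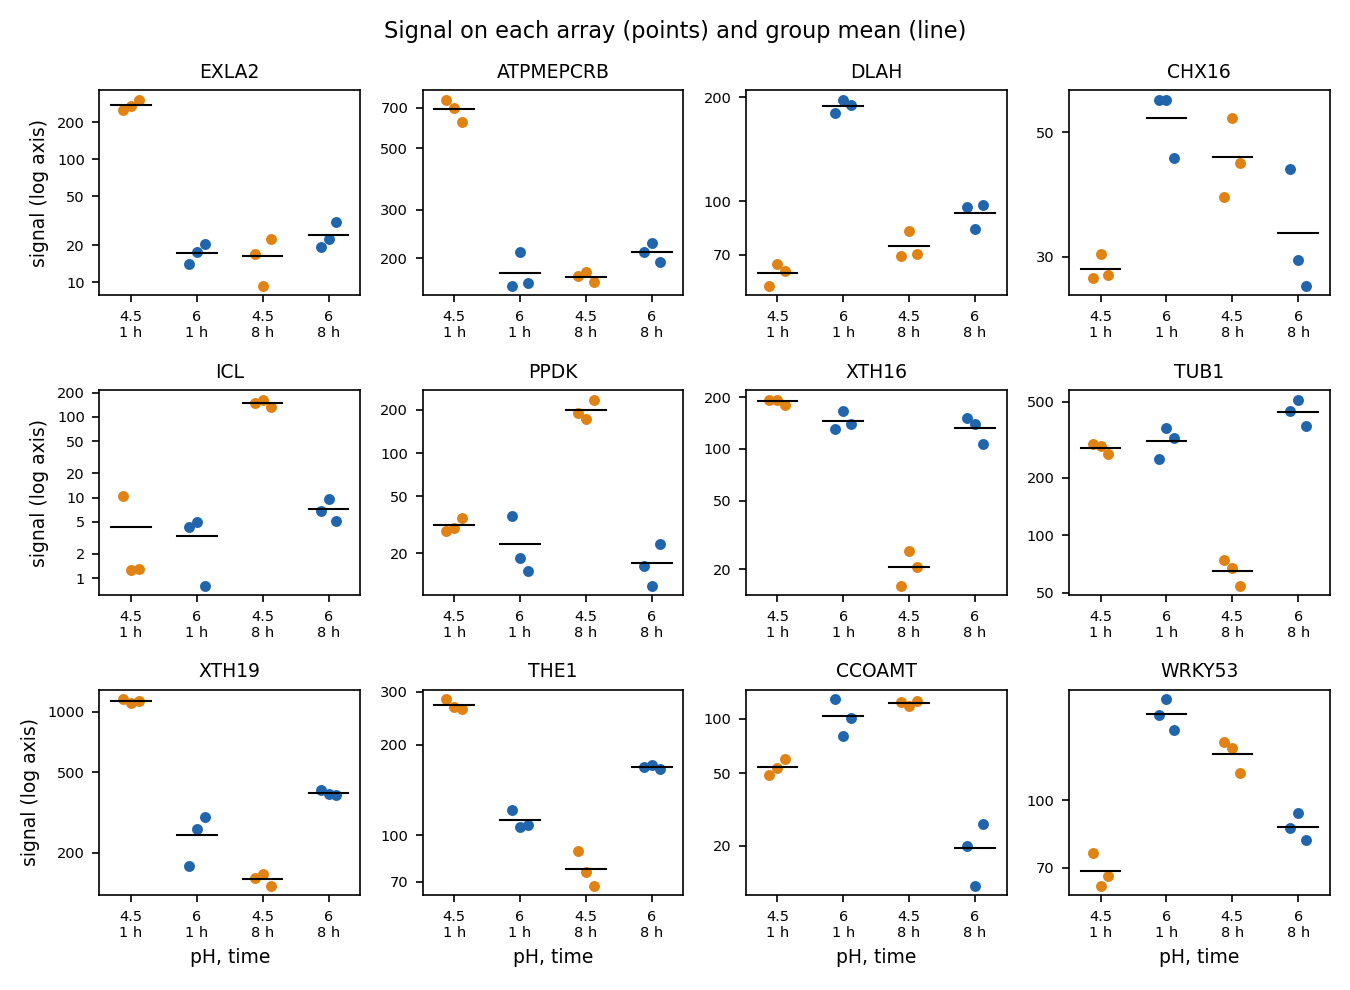
Each panel shows 1 gene's signal (log axis) on the 12 arrays, grouped by pH and time, with points for arrays (orange at pH 4.5, blue at pH 6) and a line for the group mean. EXLA2 and ATPMEPCRB were high only at pH 4.5, 1 h and ICL, PPDK only at pH 4.5, 8 h. XTH16 and TUB1 were low only at pH 4.5, 8 h, and the pH order of XTH19, THE1, CCOAMT and WRKY53 turned over between the times.

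Several wall genes gained or reversed effects toward pH 6. XTH16, an XTH enzyme that cuts and rejoins xyloglucan, read 193, 193 and 181 at pH 4.5 and 131, 165 and 139.7 at pH 6 after 1 h, and 15.97, 25.6 and 20.4 at pH 4.5 and 150.5, 139.6 and 106 at pH 6 after 8 h. The only low group was pH 4.5, 8 h. The XTH16 effect was -0.38 ± 0.15 at 1 h and 2.47 ± 0.15 at 8 h, a change of 2.84 ± 0.21 (adjusted p = 7.03e-07), with moves in time of -2.99 at pH 4.5 and -0.14 at pH 6. XTH21 had effects of 0.06 at 1 h and 2.52 at 8 h (adjusted p of the change = 1.55e-05).

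XTH19 reversed, with signals of 1151, 1097 and 1127 at pH 4.5 and 171, 261 and 298 at pH 6 after 1 h, and 150.3, 156 and 137 at pH 4.5 and 411, 390.2 and 387 at pH 6 after 8 h. The pH 4.5 arrays went from the highest of the 4 groups to the lowest, and the pH 6 arrays lay between. The XTH19 effect was -2.23 ± 0.14 at 1 h and 1.40 ± 0.14 at 8 h, a change of 3.63 ± 0.20 (adjusted p = 4.91e-08). XTH18, its close relative, had effects of -1.95 at 1 h and 0.59 at 8 h (adjusted p of the change = 4.34e-08). Since XTH18 and XTH19 are near copies, signals of the probe sets may not be fully separate. Of 10 listed XTH genes 4 changed, all toward pH 6, beside 3.69% of all genes, with a median change of 0.511. The count was 4 in each of 21 alternative settings, which include leaving out each array. At 8 h 5 XTH genes were higher at pH 6 and 1 at pH 4.5, while at 1 h the only called effects were 2 higher at pH 4.5. Over all 13286 genes these counts were 1111, 1029 and 385, in that order.

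THE1 (THESEUS1), a receptor kinase that senses wall damage, read 283, 267 and 263 at pH 4.5 and 122, 107 and 108 at pH 6 after 1 h, and 88.6, 75.2 and 67.95 at pH 4.5 and 169, 171 and 166 at pH 6 after 8 h. The order reversed without overlap at either time. The THE1 effect was -1.25 ± 0.10 at 1 h and 1.10 ± 0.10 at 8 h, a change of 2.34 ± 0.14 (adjusted p = 7.59e-08). RALFL34, a RALF-type signal peptide, had effects of 0.07 at 1 h and 0.57 at 8 h (adjusted p of the change = 0.00922). FER (FERONIA), the receptor of RALF peptides, had effects of -0.35 at 1 h and 0.17 at 8 h (adjusted p of the change = 0.118) and its change was not called. These are 2 called of 14 RALF peptides and FERONIA-type receptors (14.29%, beside 8.26% of all genes), and the median change was 0.125.

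CSLC04, a glucan synthase that makes the xyloglucan backbone, reversed, with effects of -1.71 at 1 h and 0.39 at 8 h (adjusted p of the change = 1.37e-06, of the 8 h effect = 0.0372). GH9C3, an endoglucanase, reversed as well with -0.66 at 1 h and 1.13 at 8 h (adjusted p of the change = 6.63e-05, of the 1 h effect = 0.0171). GH9B13 gained with -0.03 at 1 h and 1.07 at 8 h (adjusted p of the change = 0.0052). Of 15 GH9 endoglucanases 4 changed toward pH 6 (median change 0.248), beside 3.69% of all genes, and 2 did when any 1 of these arrays was left out: pH 4.5, 1 h replicates 1 and 2, pH 6, 1 h replicate 1, pH 4.5, 8 h replicate 3 and pH 6, 8 h replicates 2 and 3. GH9B17, 1 of the 4, had group means of at most 13.4 and lost its call in 14 of 20 alternative settings. GH9B7, another of the 4, lost its call in 9 of 21. In the trichome birefringence-like list, whose known members are linked to acetylation of wall polymers, 4 of 24 changed, all toward pH 6, beside 3.69% of all genes, and the median change was 0.101. TBL39 had effects of 0.23 at 1 h and 1.25 at 8 h (adjusted p of the change = 0.000147).

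sks15 and sks16, relatives of the wall-associated protein SKU5, grew and gained toward pH 6. sks15 gave signals of 85.1, 94.7 and 111 at pH 4.5 and 161, 155 and 165 at pH 6 after 1 h, and 32.3, 34.5 and 37.8 at pH 4.5 and 322, 291 and 304 at pH 6 after 8 h. The groups did not overlap at either time, and the distance between them was larger at 8 h. The sks15 effect was 0.71 ± 0.10 at 1 h and 2.99 ± 0.10 at 8 h, a change of 2.28 ± 0.14 (adjusted p = 1.72e-07). sks16 had effects of 0.40 at 1 h and 2.23 at 8 h (adjusted p of the change = 6.65e-06) and SKU5 itself of -0.12 at 1 h and 0.73 at 8 h (adjusted p of the change = 0.00247). All 3 were called among the 4 SKU5-similar genes, beside 8.26% of all genes, and the median change of the list was 1.342.

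Expansin-like genes moved in both directions. EXLA1, EXLA2 and EXLA3 moved toward pH 6, while EXLB1 gained an effect toward pH 4.5, with 0.19 at 1 h and -1.47 at 8 h (adjusted p of the change = 3.99e-05). Among the 14 alpha- and beta-expansins, which loosen acid walls, 1 changed (7.14%, beside 8.26% of all genes). It was EXPB3, with effects of 0.15 at 1 h and 0.87 at 8 h (adjusted p of the change = 0.0135). EXPA9 and EXPB1 had pH effects that held at both times: 2.99 at 1 h and 2.58 at 8 h (adjusted p of the change = 0.263) and 2.09 at 1 h and 2.25 at 8 h (adjusted p of the change = 0.848).

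Class III peroxidases can cross-link or loosen walls through reactive oxygen. Of the 7 that were matched by name 5 changed, all toward pH 4.5, beside 4.57% of all genes, and the median change was -0.892. Prx37 read 574, 587 and 603 at pH 4.5 and 663, 576 and 453 at pH 6 after 1 h, and 1305, 1284 and 1152 at pH 4.5 and 605, 677 and 578 at pH 6 after 8 h. Only pH 4.5, 8 h was high. The Prx37 effect was -0.08 ± 0.12 at 1 h and -1.005 ± 0.12 at 8 h, a change of -0.93 ± 0.16 (adjusted p = 0.00175). AT5G64120 had effects of 0.15 at 1 h and -1.63 at 8 h (adjusted p of the change = 0.000303) and AT5G66390 of 0.01 at 1 h and -0.89 at 8 h (adjusted p of the change = 0.000649). The count was 3 without pH 4.5, 1 h replicate 1, pH 4.5, 8 h replicate 2 or pH 6, 8 h replicate 2. PRX52, another of the 5, had group means of at most 24.3 and lost its call in 13 of 21 alternative settings.

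Several cytoskeleton genes changed toward pH 6. TUB1, a beta-tubulin of microtubules, read 299, 295 and 266 at pH 4.5 and 250.4, 363 and 321 at pH 6 after 1 h, and 74.4, 67.5 and 54.4 at pH 4.5 and 445, 513 and 373 at pH 6 after 8 h. At 8 h the pH 4.5 arrays were the lowest and the pH 6 arrays the highest, without overlap, while the groups overlapped at 1 h. The TUB1 effect was 0.10 ± 0.14 at 1 h and 2.69 ± 0.14 at 8 h, a change of 2.58 ± 0.20 (adjusted p = 1.06e-06). ACT11, an actin, reversed, with signals of 156, 167 and 157 at pH 4.5 and 87.2, 107 and 110.5 at pH 6 after 1 h, and 67.5, 55.1 and 52.6 at pH 4.5 and 159.9, 172 and 196 at pH 6 after 8 h. At neither time did the pH groups overlap. The ACT11 effect was -0.64 ± 0.12 at 1 h and 1.53 ± 0.12 at 8 h, a change of 2.17 ± 0.17 (adjusted p = 8.18e-07). TUB5 and TUB9 had effects of 0.38 at 1 h and 1.63 at 8 h (adjusted p of the change = 1.23e-05) and -0.24 at 1 h and 0.41 at 8 h (adjusted p of the change = 0.000416).

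Of the 9 tubulins and actins 4 changed, all toward pH 6, beside 3.69% of all genes, with a median change of 0.482. At 8 h 7 were higher at pH 6 against 1 at 1 h, beside 1111 and 377 of all 13286 genes. Tubulin genes are close in sequence, so probe sets may share signal. Histone genes HTB1, HTB2 and HTB4 (histone H2B) also changed toward pH 6, 3 of 8 beside 3.69% of all genes (median change of the list 0.442). Their effects were -0.54 at 1 h and 0.42 at 8 h (adjusted p of the change = 0.00047), -0.44 at 1 h and 0.21 at 8 h (adjusted p of the change = 0.0163) and -0.66 at 1 h and 0.03 at 8 h (adjusted p of the change = 0.00508). Of 15 mitosis genes 6 were higher at pH 6 at 8 h, beside 1111 of all 13286 genes. However, limma called a change of the pH effect in 0 of the 15, with 3 at an unadjusted p under 0.05. SIM, a cell-cycle inhibitor, had effects of 0.06 at 1 h and 0.46 at 8 h (adjusted p of the change = 0.101).

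**Figure D4:**
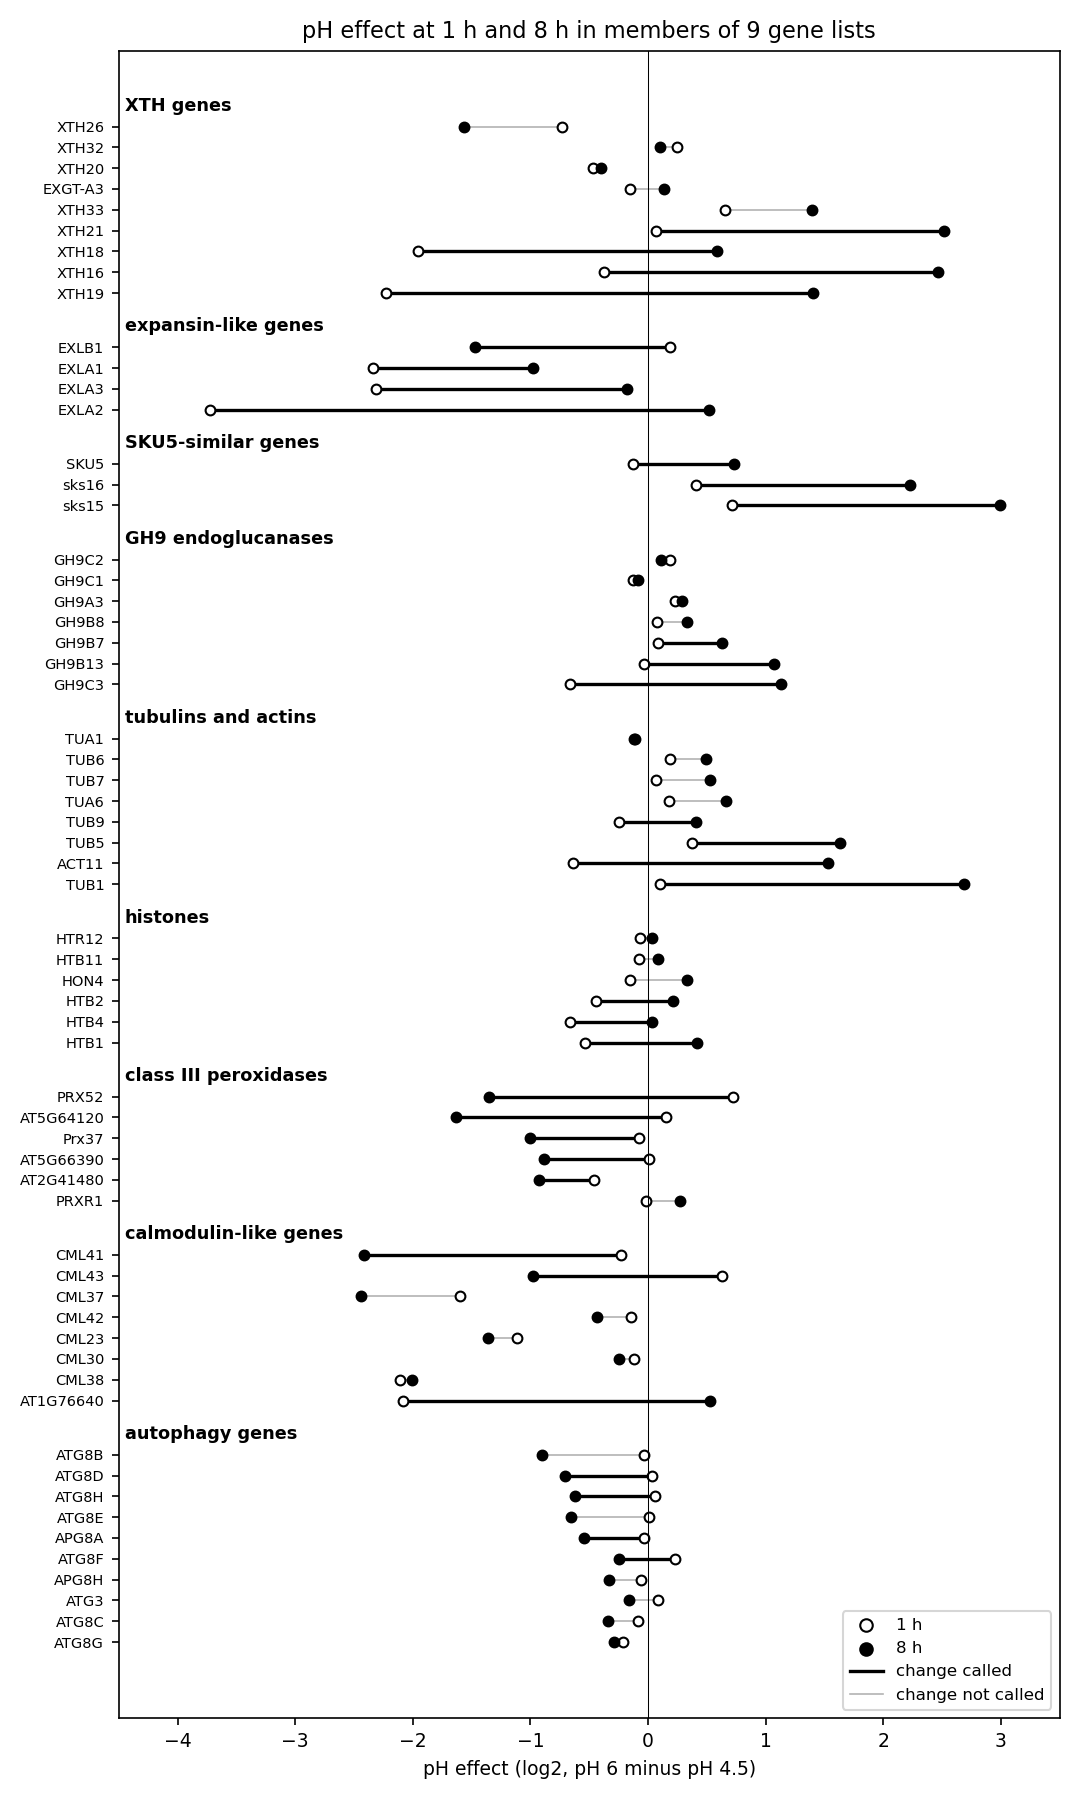
For 9 gene lists, each line joins 1 member's pH effect at 1 h (open circle) and at 8 h (filled circle) on the log2(signal + 4) scale, pH 6 minus pH 4.5, with black lines where the change was called and grey where it was not. Members with a highest group mean of 20 or more are shown. The called lines run to the right in the XTH, SKU5-similar, GH9, tubulin and actin and histone lists and to the left in the peroxidase and autophagy lists.

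Some genes of protein turnover and stress protection gained effects toward pH 4.5. Of 10 autophagy genes, most of them ATG8 ubiquitin-like proteins of the autophagosome, limma called a pH effect at 1 h in 0 (1 at an unadjusted p under 0.05). At 8 h 7 were higher at pH 4.5, beside 1029 of all 13286 genes. A change toward pH 4.5 was called in 4, beside 4.57% of all genes. The median change was -0.491. ATG8D gave signals of 143, 151 and 158 at pH 4.5 and 167, 152 and 145 at pH 6 after 1 h, and 245, 266 and 236 at pH 4.5 and 154, 157 and 142 at pH 6 after 8 h. The pH groups overlapped at 1 h and were separate at 8 h. The ATG8D effect was 0.03 ± 0.08 at 1 h and -0.70 ± 0.08 at 8 h, a change of -0.73 ± 0.12 (adjusted p = 0.000901). The number called was 2 without pH 4.5, 8 h replicate 2, 1 without the intensity trend of the fit and 6 without pH 6, 1 h replicate 3.

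LTI30, a dehydrin that protects cells under cold and drought, read 1809, 1736 and 1759 at pH 4.5 and 1770.03, 1493 and 1636 at pH 6 after 1 h, and 1263, 1248 and 1169 at pH 4.5 and 406, 409 and 395 at pH 6 after 8 h. Both media fell with time, pH 6 further, and the groups overlapped at 1 h but not at 8 h. The LTI30 effect was -0.12 ± 0.08 at 1 h and -1.60 ± 0.08 at 8 h, a change of -1.48 ± 0.11 (adjusted p = 8.15e-07). Of 12 cold and dehydration proteins 1 other was called, AT2G46140, toward pH 6. Its call was lost in 5 of 21 alternative settings. The share called in the list was 16.67%, beside 8.26% of all genes. SCPL34, a serine carboxypeptidase-like protein, gained an effect toward pH 6, with -0.03 at 1 h and 2.02 at 8 h (adjusted p of the change = 0.00012), as did scpl40, with 0.13 at 1 h and 1.88 at 8 h (adjusted p of the change = 1.23e-05). Of 29 such genes 3 changed toward pH 6 and 1 toward pH 4.5, beside 3.69% and 4.57% of all genes, and the median change was -0.006.

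LBD16, a transcription factor of lateral root initiation, had effects of -0.24 at 1 h and -1.31 at 8 h (adjusted p of the change = 0.00417). LBD29 and PUCHI, which act in the same process, had -0.15 at 1 h and -1.35 at 8 h (adjusted p of the change = 0.0361) and 0.16 at 1 h and -0.81 at 8 h (adjusted p of the change = 0.0222), and their calls were lost in 12 and 6 of 21 alternative settings. Of 21 auxin genes 4 changed toward pH 4.5 and 1, GH3.1, toward pH 6, beside 4.57% and 3.69% of all genes, and the median change was -0.466. The count toward pH 4.5 was 2 without pH 4.5, 1 h replicate 1, pH 4.5, 8 h replicate 1 or pH 4.5, 8 h replicate 2. Of 20 bZIP factors 3 changed, all toward pH 6, among them BZIP61 with effects of 1.09 at 1 h and 2.38 at 8 h (adjusted p of the change = 0.0027), beside 3.69% of all genes and with a median change of 0.104. The number was 1 without pH 4.5, 1 h replicate 2.

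Besides the mitosis genes, 12 lists held 0 called changes in limma: glutamate receptor-like channels, cytokinin response regulators, jasmonate and ethylene genes, ER body genes, nitrate and peptide transporters, vacuolar proton pump subunits, SWEET sugar transporters, exocyst genes, ubiquitin proteases and conjugases, vacuolar processing enzymes, alternative NAD(P)H dehydrogenases and nuclear photosynthesis genes. With the mitosis genes these lists hold 128 genes, of which 21 had a change at an unadjusted p under 0.05. The 69 plastid-encoded genes held 1 change toward pH 6 and 2 toward pH 4.5 (4.35% in either direction, beside 8.26% of all genes). Those toward pH 4.5 numbered 0 under either other scaling. Over all 13286 genes the median pH effects were 0.059 at 1 h and 0.036 at 8 h.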

How the data were processed

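Each of 12 root RNA samples was measured on its own Affymetrix ATH1 array. The authors deposited signal intensity values on a linear scale, and the submitters' processing notes name the tools MAS5 and GCOS; versions are not given in the sources used here. Arrays have no read depth, and precision is limited by how many there are. Of 22810 probe sets, 64 array controls were left out. A probe table names 1 gene for 13513 probe sets, several for 503 and none for 8730, and 13436 matched RefSeq (TAIR10.1), of which 1535 genes have a symbol other than their locus code. Loci without a symbol are given no role.

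Signals were taken as log2(signal + 4). A mean for each group was fitted with limma 3.58.1 under R 4.3.3 (lmFit, eBayes with an intensity trend, 8 residual and a median of 6.275 prior degrees of freedom). P-values are two-sided and Benjamini-Hochberg adjusted over all 22746 probe sets in each of 5 contrasts: the pH effect at each time, their difference, and the time effect at each pH. No filter on low signals was used. Where a gene had several probe sets, that with the highest mean was kept for the lists. The procedure was tested on simulated data. Tables and figures were made in Python 3.11.15 using pandas 2.3.3, numpy 2.4.6 and, for drawing, matplotlib 3.10.9.

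Named genes were, among genes with a group mean of at least 20 and a called change, the 5 largest in each lost, gained and reversed class and the 3 largest in each grown or shrunk class, the same again among genes with a symbol (added after the annotation was seen) and, at any signal, up to 4 called members of each list with at least 2: 127 in all. The cell type markers were named beside them. Members of lists named outside this rule, such as EXPA9, EXPB1, EXPB3, FER, STZ, CML37, CML38, SIM, IVD, ALDH7B4, Hsp70-2, CRT1b, MTP11 and CCR2, were chosen after their values were seen. The 49 lists (664 genes) were matched by symbol and synonym, narrower than first written because the reference holds no descriptions, and were redrawn after the annotation was seen. The members, classes and lists were chosen with earlier results of these data known. Alternatives were other constants, a filter, scalings, fits and leaving out each array.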

Additional observations from a re-analysis of the deposited data

Results flagged for a closer look

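The whole comparison is a test of whether the pH effect differs between the 2 times, so every called change meets the criterion of a tested difference between groups. The counts were 980 changes toward pH 6 and 1165 toward pH 4.5. Beyond these counts, reversals were ranked only among genes with a named probe set and a group mean at the level stated earlier. The 99 reversed probe sets that began higher at pH 4.5 held 45 named genes. The 96 that began higher at pH 6 held 47, and reversed probe sets without a named gene were not ranked. The 5 largest ranked reversals in each direction are given, since their effects were called with opposite signs at the 2 times. Among those that began higher at pH 4.5, XTH19 changed by 3.63, AT1G76240 by 2.92, AT4G38410 by 2.81, AT2G17070 by 2.75 and AT1G44830 by 2.68 on the log2 scale. Among those that began higher at pH 6, AT3G13950 changed by -3.66, AT1G26420 by -3.56, CCOAMT by -3.33, AT1G26380 by -3.10 and AT2G28270 by -2.84. In all 10 genes the 3 arrays of one pH lay above those of the other at 1 h, and the order was the opposite at 8 h. The change of the pH effect in these 10 kept its call and direction in each of the alternative settings run. This does not cover the calls at each time, which define a reversal. The 1 h effect of CCOAMT had an adjusted p of 0.0185 in limma, so at the stricter threshold given below its reversal was not called.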

How the results depend on the processing

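At an adjusted p of 0.01 the change was called in 1218 probe sets (549 toward pH 6 and 669 toward pH 4.5), the pH effect in 778 at 1 h and 2549 at 8 h, and the time effect in 2111 at pH 4.5 and 1370 at pH 6. Lost effects then numbered 106 (higher at pH 4.5) and 60 (higher at pH 6), gained effects 482 and 329, and reversals 46 and 43; the stricter threshold itself gives fewer calls. Centring arrays on their medians left 84 lost effects higher at pH 6, and fitting without the intensity trend left 62 and 63 reversals; the cause was not tested. Under median centring 2183 changes were called, 1205 toward pH 6 and 978 toward pH 4.5, and under quantile normalization 2079. Leaving out each array in turn gave 1694 to 2076 changes (782 to 946 toward pH 6, 909 to 1142 toward pH 4.5), 996 to 1554 and 3176 to 4137 pH effects at 1 h and 8 h, and 2543 to 3671 and 1857 to 2745 time effects at pH 4.5 and pH 6. In the same fits lost effects numbered 130 to 169 and 87 to 132, gained effects 599 to 800 and 446 to 600, and reversals 65 to 95 and 62 to 92. With the replicate number as a block 2259 changes were called. The 18 same-number pairs of deviations from group means correlated at -0.0894 to 0.168, 5 of them over 0.1. Pairs of replicate 2 lay at 0.0262 to 0.168, those of replicate 1 at -0.0487 to 0.0583 and those of replicate 3 at -0.0894 to 0.136. Pairs with different numbers lay at -0.1952 to 0.2012. Whether arrays with the same number share a batch was not tested. No named gene reversed under any setting. Of 127 named genes 98 kept their call at the stricter threshold, 112 without the trend, 111 to 122 without an array and 122 or more otherwise, apart from 2 that the filter on low signals left out. Signals near the background limit what can be seen of weakly expressed genes.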

Other observations

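In some lists 1 member had a called change, beside 8.26% of all genes. IVD, isovaleryl-CoA dehydrogenase of leucine breakdown, was the 1 of 8 branched-chain amino acid breakdown genes called, with effects of 0.23 at 1 h and -1.42 at 8 h (adjusted p of the change = 1.55e-05). The list's median change was -0.384, and 3 of its members were higher at pH 4.5 at 8 h, beside 1029 of all 13286 genes. ALDH7B4 was the 1 of 8 aldehyde dehydrogenases called, with effects of -0.06 at 1 h and -1.52 at 8 h (adjusted p of the change = 3.63e-05). Hsp70-2, a chaperone, was the 1 of 11 heat shock proteins called, with 0.05 at 1 h and -1.11 at 8 h (adjusted p of the change = 0.000208), and CRT1b, a calreticulin of the endoplasmic reticulum, the 1 of 14 unfolded protein response genes, with 0.06 at 1 h and 0.48 at 8 h (adjusted p of the change = 0.0429). MTP11, a metal transporter, was the 1 of 15 iron and metal genes called, with -1.17 at 1 h and -1.69 at 8 h (adjusted p of the change = 0.0375). CHX16 was the 1 of 7 cation/proton exchangers, ATPMEPCRB the 1 of 5 pectin methylesterases and CSLC04 the 1 of 8 cellulose synthase-like genes.

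Other lists held 1 called gene in each direction. The share called was 22.22% of plant U-box ligases, 15.38% of plant defensins and LCR peptides, 6.9% of IQD and TRM genes and 40% of clock genes. Over all genes it was 8.26%. PUB24, a U-box ligase, had effects of 0.05 at 1 h and -1.03 at 8 h (adjusted p of the change = 0.00277) beside PUB26 among 9 plant U-box ligases. PDF2.5, a plant defensin, had -0.04 at 1 h and 0.81 at 8 h (adjusted p of the change = 0.00264), out of 13 plant defensins and LCR peptides. The other called there, LCR67, had group means of at most 6.44, low on this scale, and its change ranged from -2.518 to -0.465 over the 20 alternative settings that kept it. The microtubule-associated IQD19 and TRM19, out of 29, had 0.44 at 1 h and 1.30 at 8 h (adjusted p of the change = 0.0248) and 0.08 at 1 h and -0.88 at 8 h (adjusted p of the change = 0.0184). Of 5 clock genes COR27, which is cold-induced, had -1.10 at 1 h and -0.03 at 8 h (adjusted p of the change = 0.0188) beside CCL, while CCR2 was not called, with -0.39 at 1 h and -1.21 at 8 h (adjusted p of the change = 0.0527). The calls of PUB26, IQD19, TRM19 and COR27 were each lost when at least 1 array was left out.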
